A study of Mus musculus with 8 samples.

Results

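Connexins and pannexins are membrane proteins that let small molecules pass between cells or out of them. The 6 genes described here are the connexins Gja1, Gjc1, Gjb2 and Gjb5 and the pannexins Panx1 and Panx3, out of 19301 genes in the table. They were found by symbol, and all 6 were present. The list was selected on earlier results of the same contrast, HFHG against LG, so the levels of these genes and their differences between the media are given as a description without a test.

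Connexin subunits join in a ring called a connexon, and a pair of connexons in facing membranes makes the channel of a gap junction, through which ions, second messengers and small metabolites pass. Tendon cells are joined in long rows by such junctions, built mainly of the Gja1 product Cx43, and are known to pass calcium signals along them when the tendon is loaded. Pannexins have a similar fold but act mostly as single-membrane channels that release ATP, which is then sensed by purinergic receptors or broken down to adenosine by enzymes on the cell surface.

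mRNA was sequenced from primary tendon stem cells (TSCs) of C57BL/6J mice, isolated from the patellar tendon by collagenase digestion and grown on plastic. The LG group was kept in low glucose medium (5.5 mM glucose with the solvent DMSO), and the HFHG group in a medium rich in glucose with palmitic acid (a saturated fat, at 300 µM) added, in both cases for 4 days. Glucose and palmitic acid were changed together, so their parts in a difference cannot be told apart. Each group had 4 libraries described as biological replicates, and whether these came from separate mice is not given in the sources used here, so the p-values measure the spread between these cultures.

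Expression is given as FPKM, which scales a gene's fragments by gene length and by library size. Whole reads could be worked back from the values, and the libraries held between 34308108 and 37362725 reads. At this depth 1 read of a gene the size of Gjb2 is worth a small fraction of an FPKM, and 3 reads, used as the floor of detection, correspond to between 0.0334 and 0.0364 FPKM. In a principal component analysis 81.0% of the variance lay between the media, and the next component, with 4.18%, set LG replicate 4 apart from the other libraries. The log2 differences of Gjc1, Gjb5, Gjb2 and Panx3 are given with and without that library.

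The cultures were checked against markers of the cell types that a digest of tendon could hold. All 11 tendon markers and all 6 markers of mesenchymal progenitors were above the filter used below, with summed levels for tendon of 2756 ± 22.4 FPKM in HFHG and 1761 ± 17.4 FPKM in LG (SD, n = 4 each), led by Col1a2 in HFHG and by Dcn in LG. Of the 11 tendon markers, 8 were higher in HFHG and 2, Mkx and Egr1, were lower (limma adjusted p under 0.05), beside 34.0% and 30.8% of all genes tested. Transcripts of macrophages were also abundant. The 8 macrophage and leukocyte markers summed to 1726 ± 21.1 FPKM in HFHG and 1893 ± 34.9 FPKM in LG (SD, n = 4 each), led by Lyz2, while the T cell gene Cd3e and the B cell gene Cd79a were at or near 0. Of the 6 tested markers of this list, 5 were lower in HFHG (limma adjusted p under 0.05), beside 30.8% of all genes tested. Among the 5, C1qa differed most, with 18.6 ± 0.549 FPKM in HFHG against 36.6 ± 2.68 FPKM in LG (SD, n = 4 each). Lyz2 differed far less, with 1637 ± 19.4 FPKM in HFHG and 1765 ± 32.6 FPKM in LG (SD, n = 4 each), and Ptprc did not pass the test. In bulk RNA, fewer cells of a type and less RNA per cell cannot be told apart, and the part of the macrophage transcripts in the levels of any channel gene was not tested. The keratin genes Krt5 and Krt14, which define the basal layer of the epidermis, had means under 0.04 FPKM in both groups, and the endothelial, chondrocyte, osteoblast, skeletal muscle and nerve glia lists each summed to under 8 FPKM in every library.

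Across the transcriptome the media differed widely. Genes that reached 0.5 FPKM in 4 or more libraries were compared with limma on log2(FPKM + 0.1), which left 11710 genes, and the fold changes below are on this scale, on which weakly expressed genes appear to change less than they did. At an adjusted p under 0.05, 34.0% of the genes stood higher in HFHG and 30.8% stood lower. Which direction had more genes depended on the scaling between libraries, with 4682 higher and 3002 lower with the same sum, 3548 and 4053 with median-ratio scaling, and 3606 and 4024 with quantile normalization, against 3983 and 3609. With the thresholds of the study's methods, a fold above 2 and an unadjusted p under 0.05, 3.68% were higher and 1.65% lower. The 4 HFHG values lay above the 4 LG values without overlap in 31.1% of the genes, and below them in 28.1%. Of the 6 genes described here, 4 passed the filter, and Gjb2 and Panx3 did not. Groups did not overlap in 3 of the 6, with Gja1 and Gjb5 higher and Panx1 lower in HFHG, and nothing is read from this count since the genes were selected on this contrast.

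Gja1 was by far the most abundant of the family. Its product Cx43 is the main gap junction protein of fibroblasts, tendon cells and osteoblasts. The gene (NCBI gene 14609) lies on the plus strand of chromosome 10 of GRCm38, from 56377330 to 56402513. Its level was 237, 242, 241 and 244 FPKM in HFHG replicates 1 to 4, and 203, 208, 207 and 202 FPKM in LG replicates 1 to 4. The values of each group lay close together, and the lowest HFHG value stood above the highest LG value. The mean was 241 ± 3.24 FPKM in HFHG and 205 ± 2.79 FPKM in LG (SD, n = 4 each), a difference of 17.5% or 0.23 on the log2 scale (SE 0.014). The level of Gja1 ranked 269 among the 19301 genes. Behind these values stood 22327 to 28589 reads per library, so counting error was smaller than the spread of the replicates. Because the spread was small, the difference moved by more than 1 SD with the scaling between libraries, from 0.20 with median-ratio scaling to 0.36 with quantile normalization.

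The promoters of the genes on which the account turns are shown as the 250 bases before the start annotated by RefSeq (GRCm38.p6), since Gja1 and Gjb5 stood higher and Panx1 lower in HFHG. Of the 6 genes, 4 had an entry in the promoter table. Capitals mark matches on either strand to the AP-1 motif TGANTCA, which 6.7% of 32536 promoter windows of this length hold, and to the GC box GGGCGG, which 33.0% hold. The windows are those of Gja1 (chr10:56377050-56377299, plus strand), Gjb5 (chr4:127358165-127358414, minus strand) and Panx1 (chr9:15045479-15045728, minus strand).
Gja1: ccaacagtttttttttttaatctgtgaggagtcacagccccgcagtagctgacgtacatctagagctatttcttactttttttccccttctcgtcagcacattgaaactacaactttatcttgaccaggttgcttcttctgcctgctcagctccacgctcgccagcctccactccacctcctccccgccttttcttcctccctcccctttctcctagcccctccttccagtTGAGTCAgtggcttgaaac
Gjb5: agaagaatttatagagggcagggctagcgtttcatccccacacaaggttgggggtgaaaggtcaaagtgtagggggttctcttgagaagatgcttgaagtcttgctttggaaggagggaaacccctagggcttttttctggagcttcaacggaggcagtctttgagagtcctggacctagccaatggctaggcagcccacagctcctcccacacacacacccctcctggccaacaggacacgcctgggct
Panx1: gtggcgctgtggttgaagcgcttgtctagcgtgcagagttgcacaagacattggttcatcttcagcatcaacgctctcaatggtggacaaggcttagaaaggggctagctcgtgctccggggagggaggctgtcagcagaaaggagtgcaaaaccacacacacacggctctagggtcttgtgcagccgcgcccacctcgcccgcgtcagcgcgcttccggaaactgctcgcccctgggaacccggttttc
The Gja1 window held 1 AP-1 match, beginning 19 bases before the start, and no GC box. The windows of Gjb5 and Panx1 held neither string of letters. GC content was 50.0% for Gja1, 54.4% for Gjb5 and 59.6% for Panx1. A match is a description of the sequence, and binding was not measured.

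**Figure D1:**
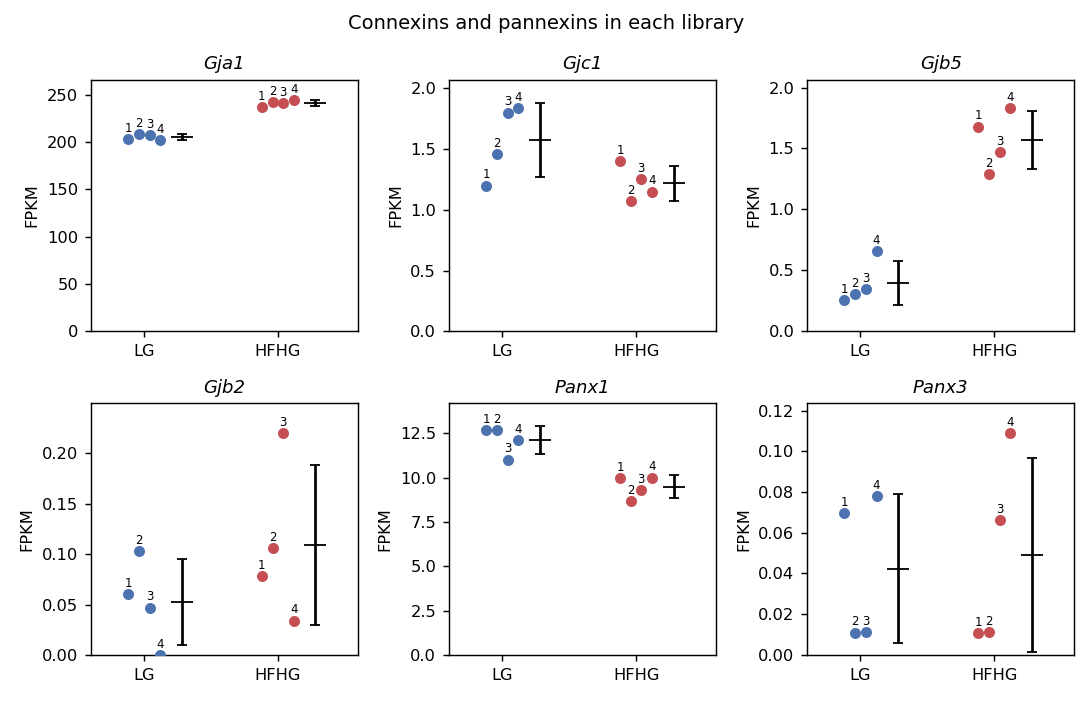
FPKM of the 6 connexin and pannexin genes (vertical axes, each from 0) in the 4 LG and 4 HFHG libraries (numbered points), with the mean and SD of each group beside them. Gja1 and Gjb5 stood higher in all HFHG libraries, Panx1 stood lower, and the groups overlapped in Gjc1, Gjb2 and Panx3.

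Gjc1 encodes Cx45, a connexin of smooth muscle, of the conducting tissue of the heart and of bone cells, which can form mixed channels with Cx43. It was expressed far below Gja1. Its values were 1.40, 1.07, 1.25 and 1.15 FPKM in HFHG replicates 1 to 4 and 1.20, 1.46, 1.80 and 1.84 FPKM in LG replicates 1 to 4. The groups overlapped, because LG replicate 1 lay below HFHG replicates 1 and 3. The mean was 1.21 ± 0.144 FPKM in HFHG and 1.58 ± 0.300 FPKM in LG (SD, n = 4 each), and the log2 difference was -0.34 (SE 0.155), or -0.26 without LG replicate 4.

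Gjb5 encodes a connexin of skin and of the placenta. The gene (NCBI gene 14622) lies on the minus strand of chromosome 4, from 127354809 to 127358181. It had 1.68, 1.29, 1.47 and 1.83 FPKM in HFHG replicates 1 to 4 and 0.257, 0.307, 0.348 and 0.660 FPKM in LG replicates 1 to 4. All HFHG values lay above all LG values, and LG replicate 4 had the highest LG level. The reads behind them numbered 389 in HFHG and 95 in LG, with 40 of the latter in LG replicate 4. Mean levels were 1.57 ± 0.236 FPKM in HFHG and 0.393 ± 0.182 FPKM in LG (SD, n = 4 each), a 3.99-fold difference of the means. On the log2 scale the difference was 1.81 (SE 0.260), and 2.04 without LG replicate 4. It was 0.89 with a pseudocount of 1 in place of 0.1. Only in the HFHG libraries was the filter of 0.5 FPKM reached in all replicates, so this gene entered the comparison through the group in which it was high.

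Gjb2 encodes Cx26, the connexin of the cochlea and of wounded epidermis, and was close to the floor of detection. HFHG replicates 1 to 4 held 7, 9, 19 and 3 reads, and LG replicates 1 to 4 held 5, 9, 4 and 0. The ratio of the pooled reads, corrected for library totals, was 2.06 with an exact 95% interval from 1.15 to 3.83, which covers counting error only. The replicates overlapped, and 19 of the 38 HFHG reads came from replicate 3. The mean level was 0.109 ± 0.0792 FPKM in HFHG and 0.0527 ± 0.0425 FPKM in LG (SD, n = 4 each). The log2 difference was 0.43, or 0.24 without LG replicate 4.

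Since Gjb5 and Gjb2 are connexins of the epidermis, the epithelial and keratinocyte markers were set beside them. Of the 10 genes, 3 were tested. A pair of desmosomal genes rose, Dsp from 0.389 FPKM in LG to 1.05 FPKM in HFHG (log2 difference 1.21, limma adjusted p = 9.66e-06, or 8.03e-05 without the filter, which Dsp passed through its HFHG values alone) and Perp from 5.87 to 11.2 FPKM (0.92, limma adjusted p = 2.38e-09), while Krt19 fell by 2.06 on the log2 scale (limma adjusted p = 3.05e-08). The list summed to 15.8 ± 1.23 FPKM in HFHG and 19.3 ± 1.01 FPKM in LG (SD, n = 4 each), led by Perp in HFHG and by Krt19 in LG, and its part in the connexin values was not tested.

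Panx1 encodes the widely expressed pannexin, a channel that releases ATP and is opened for good when caspases cut off its tail in dying cells. The gene (NCBI gene 55991) lies on the minus strand of chromosome 9, from 15002128 to 15045478. It was lower in HFHG. Its values were 9.98, 8.66, 9.30 and 9.996 FPKM in HFHG replicates 1 to 4 and 12.7, 12.7, 11.02 and 12.1 FPKM in LG replicates 1 to 4, from 636 to 957 reads per library. The groups did not overlap, although HFHG replicate 4 and LG replicate 3 were only about 1 FPKM apart. The mean was 9.49 ± 0.638 FPKM in HFHG and 12.1 ± 0.798 FPKM in LG (SD, n = 4 each), and the log2 difference was -0.35 (SE 0.069).

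Panx3, the pannexin of cartilage and of bone-forming cells, was barely detected. HFHG replicates 1 to 4 held 1, 1, 6 and 10 reads and LG replicates 1 to 4 held 6, 1, 1 and 7. The ratio of pooled reads was 1.17 with an exact 95% interval from 0.557 to 2.49, which covers counting error only, and the groups overlapped. The log2 difference was 0.05, or 0.17 without LG replicate 4. Markers of the cells in which Panx3 is best known were uneven. Comp (5.01 FPKM in HFHG and 4.60 FPKM in LG), Col10a1 (0.941 and 0.641 FPKM) and Bglap2 (1.96 and 1.67 FPKM) passed the filter, and the other 12 genes of the chondrocyte and osteoblast lists did not, among them Sp7, the transcription factor of osteoblasts, at 0.00628 FPKM in HFHG and 0.0152 FPKM in LG.

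In order of level per gene length, the HFHG cultures had Gja1, Panx1, Gjb5, Gjc1, Gjb2 and Panx3, and the LG cultures had Gja1, Panx1, Gjc1, Gjb5, Gjb2 and Panx3. Gjb5 and Gjc1 exchanged places. In HFHG their values overlapped, with 1.29 FPKM in the lowest Gjb5 library and 1.40 FPKM in the highest Gjc1 library, whereas in LG the lowest Gjc1 value, 1.20 FPKM, lay above the highest Gjb5 value, 0.660 FPKM. Gjb2 and Panx3 overlapped in both media. Gja1 made up between 98.1% and 98.5% of the summed FPKM of 20 connexin genes in the HFHG libraries and between 98.6% and 99.0% in the LG libraries.

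**Figure D2:**
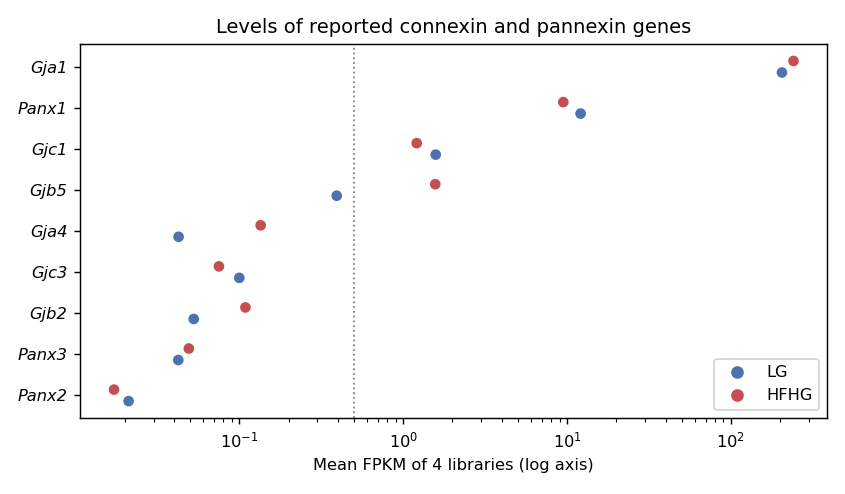
Mean FPKM of 4 libraries (horizontal log axis) for the connexin and pannexin genes described in this report, in LG and HFHG; the dotted line stands for 0.5 FPKM. Gja1 and Panx1 stand apart from the rest, and Gjb5 lies on either side of the line.

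Over the 8 libraries, the genes whose log2 level followed that of Gja1 most closely were Atf7ip (Pearson r = 0.999), Fam168a (r = 0.998) and Il1rap (r = 0.998). For Gjb5 they were Sgtb (r = 0.994), Pim3 (r = 0.993) and Ski (r = 0.991), and for Panx1 Gm41291 (r = 0.985), Ccdc91 (r = 0.980) and Thumpd3 (r = 0.980). These correlations mostly restate the split between the media, since 20.3% of the tested genes reached r above 0.9 with Gja1, 13.8% with Gjb5 and 5.99% with Panx1. Gjc1, whose groups overlapped, had only 0.248% of genes above 0.9, and the closest were Lsm8 (r = 0.960), Ccdc136 (r = 0.956) and Smu1 (r = 0.951). All values are across 8 libraries in 2 groups and are given without a p.

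None of the 17 other connexin and pannexin genes, all of them present in the table, passed the filter, so they were not tested with it. When limma was run on all genes without the filter, where 22.2% of 19301 genes were higher in HFHG and 18.4% lower at an adjusted p under 0.05, 4 of the 17 were higher and 0 were lower. With voom applied to the recovered reads, an alternative added once the data had been seen, 4 of the 11 with enough reads were higher, beside 28.1% of 16540 genes. Among them was Gja4, a connexin of endothelium and of the ovarian follicle, with 33 reads in HFHG and 10 in LG. Its ratio of pooled reads was 3.22 (exact 95% interval 1.55 to 7.32, counting error only), and its groups overlapped because LG replicate 1 held 6 of the LG reads. The log2 difference of Gja4 was 0.76 without the filter (limma adjusted p = 0.0217), and limma with voom gave an adjusted p of 0.0289. The 6 endothelial markers summed to 1.33 ± 0.0575 FPKM in HFHG and 1.07 ± 0.103 FPKM in LG (SD, n = 4 each), led by Tek, and their part in the Gja4 values was not tested. Gjc3, the connexin of Schwann cells, had 39 reads in HFHG and 51 in LG, a ratio of 0.746 (exact 95% interval 0.478 to 1.15, counting error only). Of the 5 markers of nerve glia, Sox10 rose from 1.43 to 2.13 FPKM (limma adjusted p = 0.000224), and the list summed to 5.28 ± 0.293 FPKM in HFHG and 4.07 ± 0.370 FPKM in LG (SD, n = 4 each), led by Sox10, with none of its genes at 0 in any library; its part in the values of Gjc3 was not tested. Panx2 held 14 reads in HFHG and 17 in LG.

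Of 27 genes for connexin partners, kinases and turnover, 26 were tested, 12 rose and 9 fell at a limma adjusted p under 0.05, beside 34.0% and 30.8% of all genes tested. The balance turned with the scaling, with 14 and 7 with the same sum and 8 and 9 with median-ratio scaling. Their median log2 difference was 0.05, against 0.02 for all genes tested. Cav1, the coat protein of caveolae, which binds Cx43, rose from 65.5 ± 1.57 FPKM in LG to 112 ± 1.69 FPKM in HFHG (SD, n = 4 each), a log2 difference of 0.77 (SE 0.026, limma adjusted p = 5.93e-11). Tjp1, whose product ZO-1 binds the tail of Cx43 at the rim of gap junction plaques, rose from 19.3 ± 1.19 to 26.2 ± 0.856 FPKM (SD, n = 4 each), by 0.44 on the log2 scale (limma adjusted p = 2.89e-06). Consortin, encoded by Cnst, takes part in the delivery of connexins to the cell surface, and rose by 0.58 (limma adjusted p = 4.47e-05). Prkca, a kinase that phosphorylates Cx43, rose by 0.50 (limma adjusted p = 1.63e-06). Ezr, which links membrane proteins to actin and anchors protein kinase A near Cx43, fell by 0.44 (limma adjusted p = 0.00022). For each of these 5 genes the 4 HFHG values did not overlap the 4 LG values. Of all genes tested, 31.1% lay higher in HFHG without overlap and 28.1% lay lower. Nothing is read from this count, since genes with the largest changes of the list were named. None of the list passed the fold threshold of 2.

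The list of other ATP release channels had 16 gene symbols, of which 13 were in the table and 10 were tested. Ank and Ankh on this list are names of the same gene, which was present as Ank. At a limma adjusted p under 0.05, 6 rose and 0 fell, beside 34.0% and 30.8% of all genes tested, and the median log2 difference was 0.36 against 0.02 for all genes tested. Only Calhm5 passed the fold threshold of 2. This relative of Calhm1, the ATP channel of taste cells, stood at 4.19 ± 0.708 FPKM in LG and rose to 10.03 ± 1.09 FPKM in HFHG (SD, n = 4 each), by 1.25 on the log2 scale (SE 0.114, limma adjusted p = 7.77e-07). Calhm2, of the same family, rose by 0.49 (limma adjusted p = 0.000106). Among the subunits of the volume-regulated anion channel, Lrrc8c rose by 0.43 (limma adjusted p = 0.000176) and Lrrc8d by 0.38 (limma adjusted p = 1.92e-05). The obligatory subunit Lrrc8a did not pass the test, with 9.45 ± 0.898 FPKM in HFHG and 10.2 ± 0.269 FPKM in LG (SD, n = 4 each; limma adjusted p = 0.137).

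Of 29 purinergic receptors, ecto-enzymes and caspases, 15 were tested, 8 rose and 3 fell at a limma adjusted p under 0.05, beside 34.0% and 30.8% of all genes tested, with a median log2 difference of 0.61 against 0.02 for all genes tested. Among the ATP-gated channels, P2rx4 fell by 0.82 on the log2 scale, from 42.7 ± 1.45 FPKM in LG to 24.1 ± 1.30 FPKM in HFHG (SD, n = 4 each; SE 0.042, limma adjusted p = 3.15e-09), and P2rx5 rose from 1.03 ± 0.287 to 2.39 ± 0.250 FPKM (SD, n = 4 each; log2 difference 1.17, limma adjusted p = 3.55e-05). P2rx4 is known to be abundant in macrophages, whose markers fell as given above, with Lyz2 at 1637 FPKM in HFHG and 1765 FPKM in LG and Adgre1 at 26.5 and 38.0 FPKM. The part of those cells in the P2rx4 values was not tested. P2rx7, often studied together with Panx1, did not pass the test, with 1.90 ± 0.173 FPKM in HFHG and 1.67 ± 0.105 FPKM in LG (SD, n = 4 each; limma adjusted p = 0.122). On the enzyme side, Nt5e (CD73), which makes adenosine from AMP and is a surface marker of mesenchymal stromal cells, rose from 13.3 ± 0.817 to 21.3 ± 0.548 FPKM (SD, n = 4 each; log2 difference 0.68, limma adjusted p = 4.44e-08). Enpp1, which turns ATP into AMP and pyrophosphate, rose by 0.75 (limma adjusted p = 4.06e-06).

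**Figure D3:**
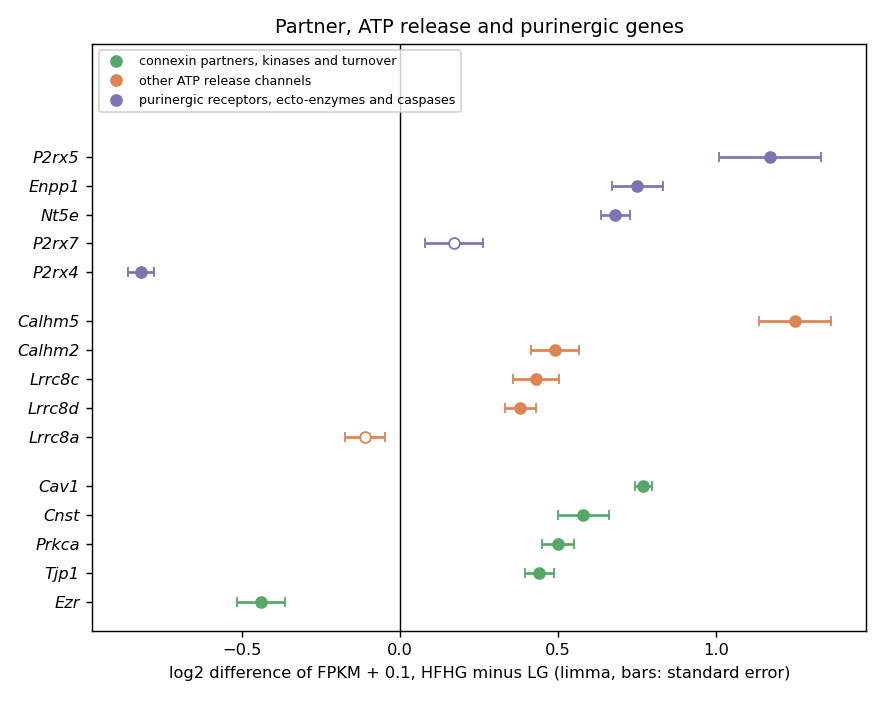
Log2 difference of FPKM + 0.1, HFHG minus LG (horizontal axis), with the standard error from limma for the named genes of 3 lists, told apart by colour. Filled points had an adjusted p under 0.05, and the open points of Lrrc8a and P2rx7 did not, while P2rx4 and Ezr were the filled points below 0.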

How the data were processed

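RNA of 8 cultures (4 HFHG, 25.5 mM glucose with 300 µM palmitic acid, and 4 LG, 5.5 mM glucose) was sequenced from stranded mRNA libraries on a NovaSeq instrument. The authors deposited FPKM values for 19301 genes, unpooled. The submitters' processing notes name HISAT2 2.1.0 and mm10; the counting program and annotation are not given in the sources used here. Groups and replicate numbers came from the sample labels.

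Whole reads were recovered for 19301 of 19301 genes (within 0.001 reads) as the smallest whole numbers that the FPKM allow, and they summed to between 99.82% and 99.85% of the recovered totals. They describe depth and served an added alternative with voom for genes with at least 10 reads. Differences were tested with limma 3.58.1 (R 4.3.3; lmFit, eBayes with trend) on log2(FPKM + 0.1), with Benjamini-Hochberg adjustment over 11710 genes. The procedure was tested on simulated data. For the 6 genes the SE is that of the difference between group means. Gene positions are from GENCODE M21 (GRCm38), and promoters from RefSeq. Variance between replicate libraries was 3.47 to 4.78 times the Poisson variance in HFHG and 3.45 to 11.9 times in LG, so no library was a duplicate of another.

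The genes and the gene lists were chosen with earlier results of these data known. Named genes were the 6 genes, other connexins with a mean of at least 0.05 FPKM, up to 4 genes per list with the largest change at an adjusted p under 0.05, P2rx7, Tjp1, Cav1, Nt5e and Lrrc8a, and the 3 genes most correlated with each tested connexin or pannexin; some genes that this rule takes are not reported here. Marker genes, Adora2a, Adora2b, P2ry1, P2ry13, P2ry14, Ada, Adk, Entpd1 and Entpd2 were singled out after their values were seen. Alternatives were another pseudocount, filter or scaling, the replicate number as a block, and each library left out.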

Additional observations from a re-analysis of the deposited data

Results flagged for a closer look

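Among 23 genes checked in both groups (46 groups), 1 library stood far from the other 3 of its group. Cav1 had 109 FPKM in HFHG replicate 2 and 113 FPKM in each of the other 3 HFHG libraries, a gap of 0.906 of the range, above Dixon's critical value for 4 samples. Chance alone flags about 1 in 20 groups. All HFHG values of Cav1 were above the highest LG value of 67.0 FPKM.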

How the results depend on the processing

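The 22 genes given with a p from the filtered test kept their direction and their side of the threshold, or stayed short of it, under the 17 alternatives (373 values); Dsp has no value with a minimum of 1 FPKM. The genes named for correlation were not rerun. The replicate numbers did not pair the libraries: correlations of same-numbered deviations were -0.0207, -0.00955, -0.00558 and -0.0736, no library correlated best with its own number, and the replicate block gave 3841 higher and 3501 lower genes, against 3983 and 3609, and changed no call of these genes. Genes past the fold threshold numbered 431 higher and 193 lower. With a pseudocount of 1 they numbered 197 and 106, and with voom on recovered reads, an alternative that was chosen after seeing the data, 1073 and 376. Of the other connexins and pannexin 2, 4 were higher with no filter and 4 with voom, against 0. Among other ATP release channels, 1 gene fell with quantile normalization, against 0, and among purinergic receptors, ecto-enzymes and caspases 12 rose and 5 fell with no filter and 10 and 5 with voom, against 8 and 3. The log2 difference of Gja1, 0.23, became 0.29 with the same sum, 0.20 with median-ratio scaling and 0.36 with quantile normalization. That of Gjb5, 1.81, became 0.89 with a pseudocount of 1, and that of Gjb2, 0.43, became 0.07 with a pseudocount of 1, 1.13 with one of 0.01 and 1.30 with voom. Without 1 library it ranged from 0.23 to 0.24 for Gja1, 1.68 to 2.04 for Gjb5, 0.20 to 0.62 for Gjb2, -0.45 to -0.26 for Gjc1, -0.40 to -0.31 for Panx1 and -0.13 to 0.18 for Panx3. The shifts of Gjb5 and Gjb2 with the pseudocount follow from the constant added to low values, and the cause of the other shifts was not tested. The median log2 difference of all genes was 0.075 at most under any scaling. Depth limits Gjb2, Gja4 and Panx3, which rest on few reads.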

Other observations

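Of the 11 purinergic receptors below the filter, 2 were higher and 2 lower at an adjusted p under 0.05 when limma was run without the filter, beside 22.2% and 18.4% of 19301 genes. They were singled out after their values were seen, and in each the groups did not overlap. The receptors P2ry13 and P2ry14, which respond to ADP and to UDP-sugars, were lower in HFHG. P2ry13 had 0.104 ± 0.0568 FPKM in HFHG and 0.429 ± 0.0723 FPKM in LG (SD, n = 4 each; limma adjusted p without the filter = 0.000374), and P2ry14 had 0.336 ± 0.0951 and 0.627 ± 0.191 FPKM (SD, n = 4 each; limma adjusted p without the filter = 0.0307). Both are known from cells of the macrophage line, whose markers fell as well, and the part of those cells in these values was not tested. The ADP receptor P2ry1 was higher, with 0.478 ± 0.0521 FPKM in HFHG and 0.267 ± 0.0886 FPKM in LG (SD, n = 4 each; limma adjusted p without the filter = 0.0165), and so was the adenosine receptor Adora2a, with 0.501 ± 0.0492 FPKM in HFHG and 0.217 ± 0.0877 FPKM in LG (SD, n = 4 each; limma adjusted p without the filter = 0.0022). With voom on the recovered reads the adjusted p-values from limma were 0.000124 for P2ry13, 0.0153 for P2ry14, 0.00676 for P2ry1 and 0.0013 for Adora2a. The far more abundant adenosine receptor Adora2b, which passed the filter, was lower, with 22.04 ± 0.627 FPKM in HFHG and 24.8 ± 1.73 FPKM in LG (SD, n = 4 each). Its log2 difference was -0.17 (limma adjusted p without the filter = 0.016), and it is counted among the 3 genes of the list of 29 that fell.

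Some enzymes of adenosine from the list of 29 genes above were also singled out after their values were seen. Those that passed the test are already counted among the 8 genes of that list that rose and the 3 that fell. No separate list of them was tested. Ada, which deaminates adenosine, went from 4.07 to 6.40 FPKM (log2 difference 0.63, limma adjusted p = 1.31e-05), and Adk, which phosphorylates it, from 7.86 to 12.01 FPKM (0.61, limma adjusted p = 2.08e-07). Entpd1 (CD39), which breaks down ATP and ADP upstream of Nt5e, fell from 1.57 to 1.13 FPKM (log2 difference -0.44, limma adjusted p = 0.00569); it too is known from macrophages, whose part was not tested. Entpd2, of the same family as Entpd1 and at a higher level, did not pass the test, with 3.22 ± 0.378 FPKM in HFHG and 2.82 ± 0.397 FPKM in LG (SD, n = 4 each). Extracellular nucleotides were not measured.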
